A study of Mus musculus with 26 samples.

Results

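The RNA described here comes from 40 genes of monocytes and macrophages that were counted in libraries of sorted CD4 T cells. The 40 genes were taken from a fixed list of names, drawn up with earlier results of these libraries known, and all 40 were among the 24848 gene symbols of each deposited table. The members were selected on their levels (CPM) in these libraries, so differences between tissues and between T cell types are given as a description, with no test. Genotype comparisons were tested across all genes, with some genotype results of these genes already known when the list was made. All 40 passed the filter on low counts, which a gene can pass through the group where it is high, so no support is drawn from counts or medians over them.

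Bulk RNA sequencing of polyadenylated RNA covered 26 samples. All came from C57BL/6 mice with experimental autoimmune encephalomyelitis (EAE, day 14), an autoimmune inflammation of the brain and spinal cord. Regulatory T cells (Treg, Foxp3-positive) or conventional T cells (Tconv, Foxp3-negative) were taken from the central nervous system (CNS) or from the draining lymph node (dLN). Control mice (Ctrl) carried Foxp3Cre-ERT2, a tamoxifen-inducible Cre recombinase driven by the Foxp3 locus, and knockout mice (icKO) carried Foxp3Cre-ERT2 x Tnfrsf1bFlox/Flox. Both genotypes received tamoxifen from day 7 to day 14, so the Cre and the drug were shared by every group and only Foxp3-expressing cells were targeted. There were 4 samples in each of the CNS Tconv groups and 3 in each of the other 6 groups.

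Monocytes enter inflamed tissue from the blood and turn into macrophages, which engulf myelin and dead cells, present antigen to T cells and secrete cytokines. In EAE such cells surround and reactivate T cells in the CNS, next to microglia, the resident macrophages of the brain. Macrophages can take a state that makes nitric oxide through Nos2 or a state that breaks down arginine through Arg1. Lymph nodes hold macrophages of their own in the sinuses and the medulla.

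Levels below are in CPM, counts scaled to the total of the library, and in TPM where genes are compared with each other, since TPM takes gene length into account. A fold change is a ratio of group means, and a log2 fold change with its standard error (SE) comes from edgeR. The total count was 12.4 to 18.5 M in 25 libraries, with 11089 to 14255 genes above 0. One library, labelled dLN Tconv icKO replicate 3, had a total of 7.78 M counts and only 6005 genes above 0. Its rank correlation with the library most like it was 0.7, where each of the others reached 0.944 or more, and it was left out of all group values and fits below unless named. The deposited file names of 5 CNS Tconv libraries (Ctrl replicates 3 and 4, icKO replicates 2, 3 and 4) pointed to the other genotype than their titles, and the titles were used. Foxp3, the lineage factor of Treg cells, was at 22.6 to 67.5 CPM in Treg and 0.111 to 1.5 CPM in Tconv libraries of the 25. Tnfrsf1b, the targeted gene, was at 322 to 496 CPM in CNS Treg icKO and 449.9 to 681 CPM in CNS Treg Ctrl libraries, and at 642 to 646 CPM in dLN Treg icKO against 778 to 902 CPM in dLN Treg Ctrl libraries. Neither Treg difference passed the test (log2 fold change -0.59 ± 0.16 and -0.36 ± 0.16, edgeR adjusted p = 0.56 and 1). In CNS Tconv libraries, which hold the 5 with disagreeing file names, the 4 icKO values of Tnfrsf1b were 265 to 367 CPM and the 4 Ctrl values 170.2 to 229 CPM. There it was higher in icKO without overlap (log2 fold change 0.72 ± 0.14, edgeR adjusted p = 0.0091), and in dLN Tconv libraries these ranges (129 to 136 and 116 to 135 CPM) overlapped. Its counts cover the whole gene, and the deleted part is not named in the labels. All 12 markers of the T cell list had a mean of at least 10 CPM in each group.

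For 30 of the 40 genes a promoter window of 250 bases upstream of the start site was found in a RefSeq table of GRCm38.p6. The windows were searched on both strands for GAGGAA, a core of sites bound by the myeloid factor PU.1 (encoded by Spi1), and for TTGCNNAA, a core of sites bound by C/EBP factors. GAGGAA was in the window of 16 of these 30 genes (53.3%), and in 25.9% of the 27025 genes of the table. TTGCNNAA was in 6 of 30 (20%), against 10.8% of all genes. Both were in the window of 3 genes (Cd68, Fcgr3 and Clec4e), against 2.34% of all genes. A gene was counted if any of its windows matched. These shares use all 250 bases of a RefSeq window, some of which can lie inside the gene as annotated by GENCODE. The windows below are shown for some genes on which the results turn: a pair of complement genes whose ratio varied little between CNS Treg libraries, the pair of calprotectin genes, and a lymph node gene. Each of these windows holds a match, whereas the window of Lyz2, which is not printed, holds neither motif. They are printed 5′ to 3′ on the strand of the gene, without bases that lie inside the annotated gene, and capitals mark a match to either motif on either strand.
C1qb, chr4:136886201-136886450, minus strand: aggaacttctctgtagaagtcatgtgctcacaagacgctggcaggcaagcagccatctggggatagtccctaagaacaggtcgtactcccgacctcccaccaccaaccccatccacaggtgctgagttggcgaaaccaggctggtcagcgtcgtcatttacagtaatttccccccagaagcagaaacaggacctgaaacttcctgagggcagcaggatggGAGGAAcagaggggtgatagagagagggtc
C1qc, chr4:136893066-136893164, minus strand: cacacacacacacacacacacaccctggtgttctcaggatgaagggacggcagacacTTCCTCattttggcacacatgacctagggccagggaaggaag
S100a8, chr3:90668821-90668977, plus strand: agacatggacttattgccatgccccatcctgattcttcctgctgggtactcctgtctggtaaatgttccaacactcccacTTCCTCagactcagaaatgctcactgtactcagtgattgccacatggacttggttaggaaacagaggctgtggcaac
S100a9, chr3:90695722-90695971, minus strand: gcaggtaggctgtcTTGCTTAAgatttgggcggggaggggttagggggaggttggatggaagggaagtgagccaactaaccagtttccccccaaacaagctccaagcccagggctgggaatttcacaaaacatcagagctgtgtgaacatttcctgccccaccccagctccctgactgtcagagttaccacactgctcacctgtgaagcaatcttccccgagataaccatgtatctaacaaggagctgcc
Cd209b, chr8:3926845-3927091, minus strand: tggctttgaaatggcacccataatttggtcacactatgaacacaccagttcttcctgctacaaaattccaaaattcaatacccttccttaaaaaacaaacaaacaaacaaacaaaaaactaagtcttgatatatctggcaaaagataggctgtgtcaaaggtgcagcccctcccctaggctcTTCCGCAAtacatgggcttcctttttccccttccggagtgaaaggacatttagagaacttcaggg
The capitals mark GAGGAA upstream of C1qb, C1qc and S100a8 (the last pair on the opposite strand), and TTGCNNAA upstream of S100a9 and, on the opposite strand, Cd209b. A match is a description of the letters and not a measured binding site.

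The 40 genes were most abundant in Treg libraries of the CNS. Summed over the 40 genes, the 3 CNS Treg Ctrl libraries held 13382, 12666 and 9228 CPM, and the 3 CNS Treg icKO libraries held 9614, 8103 and 12080 CPM. This was 0.81% to 1.34% of all counts in those libraries. The 4 CNS Tconv Ctrl libraries held 595, 580, 772 and 929 CPM, and the 4 CNS Tconv icKO libraries 599, 703, 1053 and 845 CPM. In the lymph node, Treg libraries held 1017, 1982 and 744 CPM in Ctrl and 1775, 1479 and 1067 CPM in icKO, and Tconv libraries 602, 785 and 926 CPM in Ctrl and 755 and 709 CPM in icKO. Every CNS Treg library therefore lay above each of the other 19 libraries of the 25, while the lymph node and CNS Tconv ranges overlapped. The mean sum in CNS Treg libraries was 9.43 times that in dLN Treg libraries of Ctrl mice and 6.9 times that of icKO mice. Against CNS Tconv libraries the ratio was 16.4 in Ctrl and 12.4 in icKO mice. In these bulk samples, fewer cells of a type and less RNA per cell cannot be told apart.

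**Figure D1:**
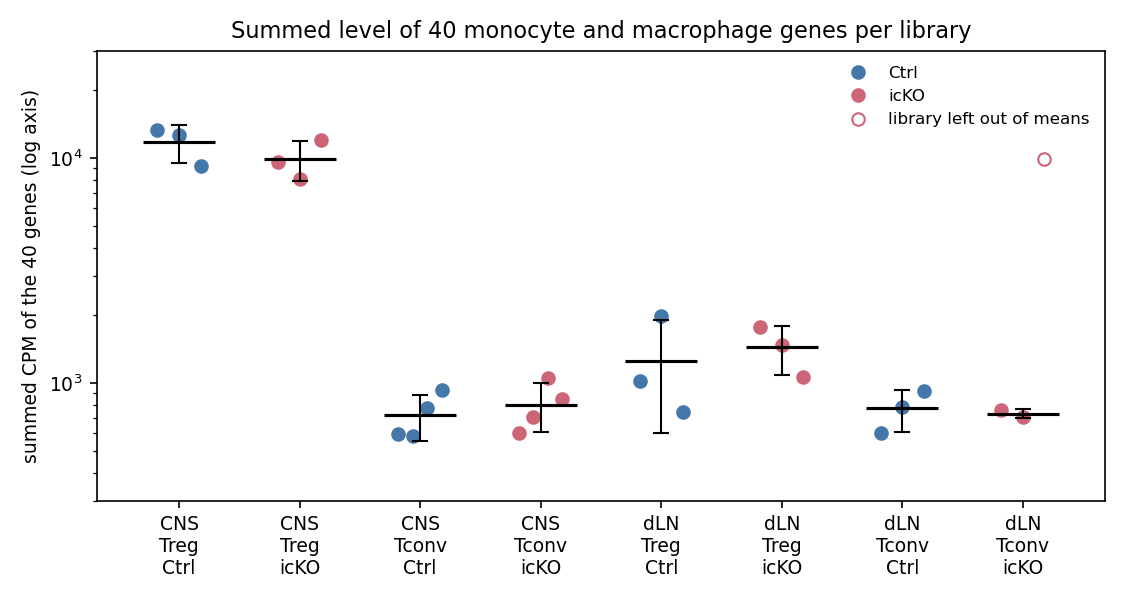
Summed CPM of the 40 genes (log axis) in each library, by group. Points are libraries, bars are the group mean and whiskers its SD, and the open point is the library left out of means. The 6 CNS Treg libraries sit between 8103 and 13382 CPM and the other filled points between 580 and 1982 CPM.

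Markers of other cells moved with these genes. Microglia markers (12 genes) summed to 2231 to 2979 CPM in CNS Treg libraries, 164 to 501 CPM in CNS Tconv, 96 to 157 CPM in dLN Treg and 153 to 235 CPM in dLN Tconv libraries. Their defining genes Sall1 and Tmem119 were at 0 in the dLN Tconv groups, and Sall1 also in the dLN Treg groups. Dendritic cell markers (12 genes, with Cd74 and H2-Aa of antigen presentation) summed to 4357 to 5081 CPM in CNS Treg, 88 to 799 CPM in CNS Tconv, 489 to 1016 CPM in dLN Treg and 210 to 592 CPM in dLN Tconv libraries. Neutrophil markers (12 genes) summed to 121 to 979 CPM in CNS Treg libraries and to at most 30 CPM in the other 19. A second list of 40 monocyte and macrophage genes, among them Ccr2 and Fcgr1, summed to 3933 to 6856 CPM in CNS Treg libraries, 1025 to 2003 CPM in CNS Tconv, 421 to 748 CPM in dLN Treg and 426 to 600 CPM in dLN Tconv libraries. The T cell list summed to 7048 to 8936 CPM in CNS Treg and 8896 to 11079 CPM in CNS Tconv libraries. Several of the 40 genes, such as Csf1r, Trem2 and the C1q genes, are also made by microglia, and S100a8 and S100a9 by neutrophils. The part of each of these cell types in the levels below was not tested.

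**Figure D2:**
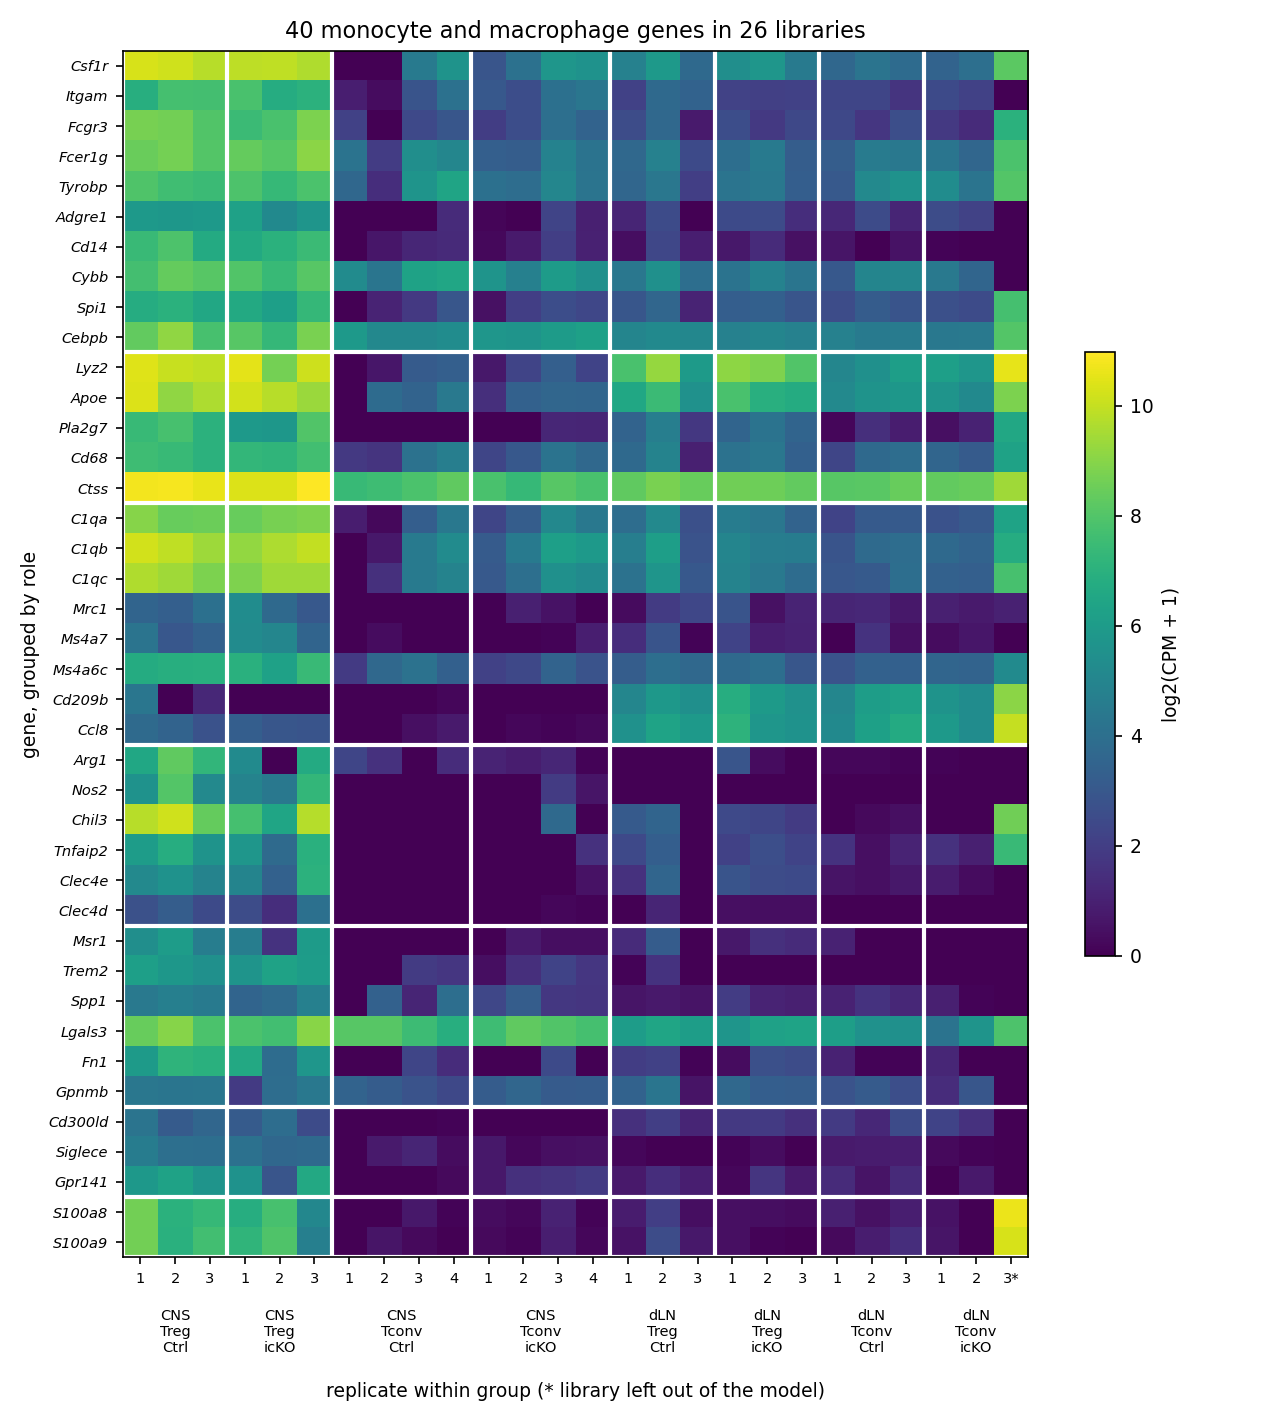
Level of each of the 40 genes, as log2(CPM + 1), in 26 libraries; white lines divide the groups (columns) and the gene roles (rows). Most genes are bright in the 6 CNS Treg columns, Cd209b and Ccl8 are brighter in the lymph node columns, and Ctss and Lgals3 are visible in every group.

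The first group holds receptors, adaptors and transcription factors shared by myeloid cells. Csf1r, the receptor for the growth factors that keep macrophages alive, was at 1253, 1156 and 876 CPM in CNS Treg Ctrl and at 947, 969 and 804 CPM in CNS Treg icKO libraries. The lymph node Treg libraries held 27.6, 58.8 and 12.4 CPM in Ctrl and 41.8, 53.3 and 22.1 CPM in icKO. No dLN library came near a CNS Treg library, and the ratio of means between the tissues was 33.2 in Ctrl Treg (log2 fold change 5.16 ± 1.15) and 23.2 in icKO Treg cells (4.65 ± 1.12). Fcer1g and Tyrobp, adaptors that carry the signals of many myeloid receptors, were at 265 to 527 and 164 to 245 CPM in CNS Treg libraries. Fcgr3, an activating Fc receptor for IgG, was at 178 to 451 CPM there. Itgam, the CD11b chain of an adhesion and complement receptor, was at 109 to 226 CPM, and Cd14, a co-receptor for bacterial lipopolysaccharide, at 99.2 to 237 CPM. Adgre1, the F4/80 antigen of mature macrophages, stayed between 36.2 and 77.2 CPM in those 6 libraries and was at 4.79 CPM or less in the other 19. Cybb, the catalytic chain of the phagocyte NADPH oxidase, was at 168 to 334 CPM, and the lineage factors Spi1 (PU.1) and Cebpb at 71.7 to 157 and 156 to 562 CPM.

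Genes of the lysosome and of lipid handling made up the largest share of the summed level in each CNS Treg library, at 30.2% to 43.6%. Ctss, a cathepsin that trims the invariant chain in antigen-presenting cells, was at 1739, 1825 and 1536 CPM in CNS Treg Ctrl and 1337, 1361 and 2007 CPM in CNS Treg icKO libraries. It was also present in each Tconv library, at 161 to 313 CPM in the CNS and 277 to 346 CPM in the lymph node. Lyz2, the lysozyme of monocytes, macrophages and neutrophils, was at 1403, 1045 and 974 CPM in CNS Treg Ctrl and 1467, 413 and 1138 CPM in CNS Treg icKO libraries. Apoe, a lipid carrier secreted by macrophages that take up lipid, was at 1357, 569 and 795 CPM and at 1176, 877 and 631 CPM. Cd68, a glycoprotein of the lysosome membrane, was at 133 to 201 CPM, and Pla2g7, a secreted phospholipase, at 54.7 to 252 CPM. By TPM, Ctss led the 40 genes with a mean of 2143 over the 6 CNS Treg libraries, at rank 40 of 24848 genes. Lyz2 followed with 1894, C1qb with 1494, Apoe with 1310.2, S100a8 with 1201 and Fcer1g with 1134 TPM. At the other end were Mrc1 with 4.87 and Cd209b with 2.77 TPM.

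The complement genes C1qa, C1qb and C1qc, whose products form the first component of the classical complement pathway, were counted in every CNS Treg library. C1qa was at 501, 342 and 361 CPM in CNS Treg Ctrl and 341, 418 and 461 CPM in CNS Treg icKO libraries. C1qb was at 1194, 962 and 656 CPM and at 581, 776 and 985 CPM in the same libraries. C1qc was at 818, 669 and 450 CPM and at 457, 680 and 677 CPM. The groups overlapped for all 3, and the TPM ratio of C1qb to C1qc kept between 1.13 and 1.45 in the 6 libraries. The 3 genes are neighbours on chromosome 4, from 136880129 (end of C1qb) to 136898803 (start of C1qa), all on the minus strand. In dLN Treg libraries C1qb was at 5.96 to 69.3 CPM, and in dLN Tconv libraries at 6.26 to 14 CPM.

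Receptors of resident tissue macrophages varied between the CNS Treg libraries. Mrc1, the mannose receptor, was at 10.6, 9.02 and 15.8 CPM in CNS Treg Ctrl and 39.7, 12.3 and 7.19 CPM in CNS Treg icKO libraries. Ms4a7, a membrane protein of macrophages at the borders of the brain and of macrophages that arise from monocytes, was at 17.9, 6.94 and 9.73 CPM and at 38.4, 31.4 and 10.5 CPM. Both were highest in icKO replicate 1, and neither group was apart from the other. Ms4a6c, of the same family, was at 77.1 to 170 CPM.

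Cd209b and Ccl8 differed from all other members in being highest in the lymph node. Cd209b encodes SIGN-R1, a lectin of marginal zone and lymph node macrophages. It was at 32, 56.7 and 42.7 CPM in dLN Treg Ctrl and 114, 61.3 and 46 CPM in dLN Treg icKO libraries. In dLN Tconv libraries it was at 32.1, 67.7 and 77.6 CPM in Ctrl and 48.3 and 39.4 CPM in icKO. It was at 0 in 7 of the 8 CNS Tconv libraries and in all 3 CNS Treg icKO libraries, and at 18.6, 0 and 1.34 CPM in CNS Treg Ctrl libraries. The lymph node levels of Treg and Tconv libraries overlapped. Ccl8, a chemokine that draws monocytes, was at 45.4, 80.6 and 58.4 CPM in dLN Treg Ctrl and 136, 52.6 and 47.5 CPM in dLN Treg icKO libraries. It was at 5.83 to 12.7 CPM in CNS Treg libraries and at 0.758 CPM or less in CNS Tconv libraries. In dLN Tconv libraries Ccl8 was at 35.4 to 102 CPM, overlapping the dLN Treg libraries. The 38 other genes were highest in a CNS Treg group, 28 in Ctrl and 10 in icKO.

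Genes of arginine metabolism and of inflammatory macrophage states were at 12.4 CPM or less in each of the 19 libraries outside CNS Treg. Arg1 was at 90.7, 309.5 and 148 CPM in CNS Treg Ctrl and 37.2, 0 and 104 CPM in CNS Treg icKO libraries. Nos2 was at 47.3, 261 and 34.7 CPM and at 29.4, 19.8 and 152 CPM. The highest Ctrl library was replicate 2 for both enzymes, and in icKO replicate 2 Arg1 was at 0 while Nos2 was still counted. Nos2 was at 0 in all 11 lymph node libraries and in 6 of the 8 CNS Tconv libraries. Measured against a floor of 3 counts per library, the mean of Nos2 in CNS Treg libraries was at least 529-fold higher than in dLN Treg libraries of Ctrl mice and at least 324-fold higher in icKO mice. The TPM ratio of Arg1 to Nos2 was 5.83, 3.62 and 12.9 in CNS Treg Ctrl and 3.79, 0 and 2.08 in CNS Treg icKO libraries, so Arg1 was the more abundant transcript per length in 5 of 6 libraries. Chil3, a chitinase-like protein of monocytes and of alternatively activated macrophages, was at 881, 1142 and 332 CPM and at 209.8, 86.4 and 848 CPM. It was at 0 in the 4 CNS Tconv Ctrl libraries, where the CNS Treg Ctrl mean was at least 3856-fold higher. Tnfaip2, a gene induced by TNF, was at 12.9 to 125 CPM in CNS Treg libraries, Clec4e (Mincle, a receptor for mycobacterial glycolipids) at 9.68 to 132 CPM, and its neighbour Clec4d at 1.67 to 15.5 CPM. Clec4d was the 1 member whose mean did not reach 10 CPM in any group.

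Genes of the scavenger and lipid-associated state behaved unequally. Trem2, a lipid-sensing receptor of microglia and of macrophages that clear lipid, was at 72.4, 54.6 and 44.2 CPM in CNS Treg Ctrl and 49.9, 78.3 and 65.7 CPM in CNS Treg icKO libraries. It was at 0 in all 5 dLN Tconv and 4 of 6 dLN Treg libraries. Msr1, a scavenger receptor for modified lipoproteins, was at 42, 66.6 and 23.8 CPM and at 24.4, 2.02 and 64.7 CPM in the CNS Treg libraries. Fn1, fibronectin, was at 61.4, 140 and 123 CPM and at 98.7, 13.5 and 53.1 CPM. Both were lowest in icKO replicate 2, where Trem2 was highest. Spp1 (osteopontin) was at 10.6 to 26.4 CPM and Gpnmb, a glycoprotein of lipid-laden macrophages, at 2.68 to 19.8 CPM in CNS Treg libraries. Lgals3 (galectin 3) was at 201 to 516 CPM in CNS Treg and 115 to 317 CPM in CNS Tconv libraries, and these ranges overlapped.

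The orphan and inhibitory receptors were counted mainly in CNS Treg libraries. Gpr141, an orphan G protein-coupled receptor, was at 56.2, 78.6 and 49.6 CPM in CNS Treg Ctrl and 47.4, 6.41 and 98.3 CPM in CNS Treg icKO libraries. Siglece, an inhibitory receptor for sialic acid, was at 11.6 to 23.5 CPM, and Cd300ld, of a family of lipid-binding receptors, at 4.72 to 17.8 CPM. All 3 were at 4.68 CPM or less in each of the other 19 libraries.

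S100a8 and S100a9, the subunits of calprotectin, moved as a pair. S100a8 was at 401, 127 and 161 CPM in CNS Treg Ctrl and 113, 220 and 32.6 CPM in CNS Treg icKO libraries. S100a9 was at 402, 125 and 199 CPM and at 143, 249 and 25.3 CPM. For both, Ctrl replicate 1 was highest and icKO replicate 3 lowest. The summed neutrophil markers of the same libraries were 979, 466 and 534 CPM in Ctrl and 377, 457 and 121 CPM in icKO, highest and lowest in the same libraries. Both genes lie on chromosome 3 (S100a8 from 90668978 to 90670035 on the plus strand, S100a9 from 90692632 to 90695721 on the minus strand). Both were at 4.81 CPM or less in the other 19 libraries.

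The make-up of the sum differed between tissues in Treg and in Tconv libraries, though not in all the same roles. Genes shared by myeloid cells were 24.4% to 29% of the sum in CNS Treg libraries and 7.94% to 11.9% in dLN Treg libraries. In Tconv libraries this share overlapped, at 10.1% to 34.9% in the CNS and 12.5% to 18.7% in the dLN. Lysosomal and lipid genes were 61.3% to 67.2% of the sum in dLN Treg libraries, above the CNS Treg range. They were 50.1% to 62.6% in dLN Tconv and 25.8% to 39.6% in CNS Tconv libraries. Scavenger and lipid-associated genes were 14.8% to 51.1% of the sum in CNS Tconv and 2.8% to 13% in dLN Tconv libraries. In Treg libraries their share overlapped, at 3.97% to 6.43% in the CNS and 3.77% to 9.2% in the dLN. The ratio of Lyz2 to Csf1r by CPM was 0.426 to 1.55 in CNS Treg, 5.05 to 13.3 in dLN Treg and 2.55 to 7.06 in dLN Tconv libraries. In CNS Tconv libraries where both were counted it was 0.075 to 0.372. These 4 ranges met only between the dLN groups. In the lymph node Lyz2 itself was at 227, 608 and 62.5 CPM in Treg Ctrl, 554, 463 and 257 CPM in Treg icKO and 31.4 to 72.9 CPM in Tconv libraries.

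**Figure D3:**
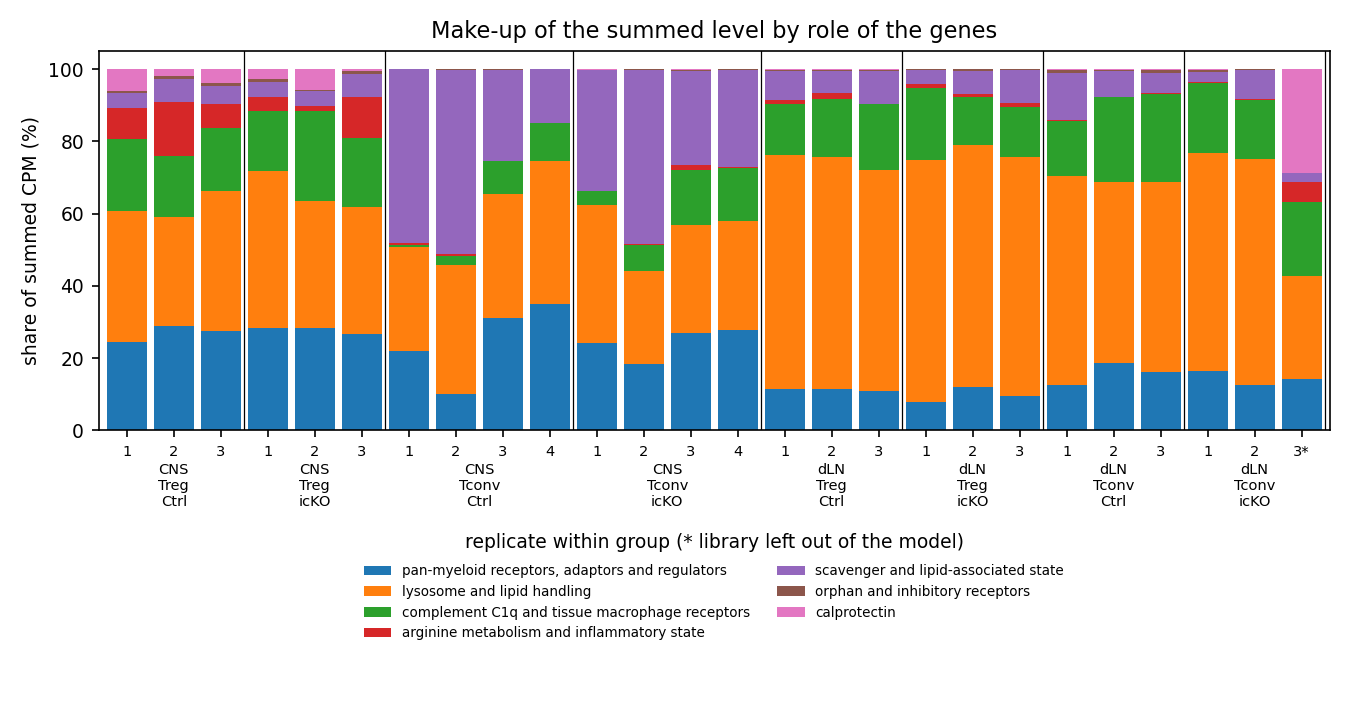
Share of the summed CPM of the 40 genes (%) that each role contributes, by library. Lysosomal and lipid genes fill 61.3% to 67.2% of the dLN Treg bars, and scavenger and lipid-associated genes up to 51.1% of CNS Tconv bars. That highest share, in Ctrl replicate 2, is mostly Lgals3 (279 of 580 CPM). The last bar is the library left out of means.

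The 6 CNS Treg libraries differed in which of the 40 genes they held most. The coefficient of variation over the 6 libraries was 16.3% for Cd68, 16.4% for Ctss, 16.5% for Tyrobp, 16.7% for C1qa and 17.1% for Csf1r. It was 106% for Nos2, 94.5% for Arg1, 91.4% for Clec4e, 76.6% for Mrc1, 73.5% for Chil3 and 71.8% for S100a8. The median over 37 members with a mean of 10 CPM there was 35.2%, and over all 8719 such genes 20.8%. The library icKO replicate 2 had the lowest sum of the 6 and the lowest value for 20 of the 40 members, where each of the other 5 had the lowest for at most 7. These 20 came from most roles and included Arg1 at 0, Msr1 at 2.02 CPM and Gpr141 at 6.41 CPM. They also included Lyz2, Nos2, Chil3, Pla2g7, Tnfaip2, Clec4e, Clec4d, Fn1, Lgals3 and Siglece, as well as Itgam, Tyrobp, Adgre1, Ms4a6c, Cybb, Spi1 and Cebpb. In the same library Csf1r (969 CPM), C1qa (418 CPM) and Apoe (877 CPM) lay inside the range of the other 5, and Trem2 was the highest of the 6. Its microglia markers summed to 2758 CPM, inside the range of the other 5. In icKO replicate 3 Clec4e (132 CPM), Gpr141 and Pla2g7 were highest and S100a8, S100a9 and Mrc1 lowest. These are differences between single libraries of a group, and they have no replicate of their own.

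**Figure D4:**
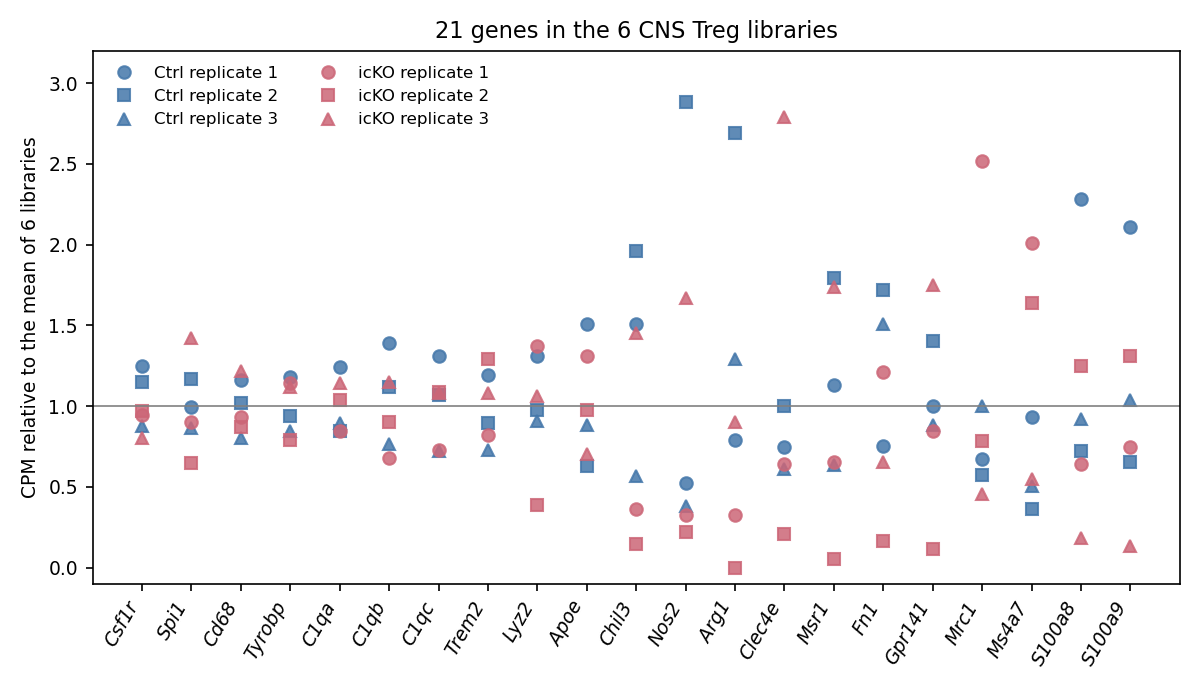
CPM of 21 genes in each of the 6 CNS Treg libraries, divided by the gene's mean over the 6 (1 is the mean). Csf1r, Cd68, Tyrobp and C1qa stay near 1 in every library, while Nos2, Arg1, Clec4e, Mrc1 and the S100 genes spread, and icKO replicate 2 is lowest from Lyz2 and Chil3 to Gpr141 apart from Apoe.

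In CNS Tconv libraries Ctss and Lgals3 alone made up 46.1% to 80.9% of the sum in Ctrl and 50.5% to 68.3% in icKO, against 15.5% to 20.9% in CNS Treg libraries. In dLN Treg libraries Ctss and Lgals3 made up 26.2% to 55.4% in Ctrl and 24.3% to 37.7% in icKO. In dLN Tconv libraries they made up 42.1% to 57.4% in Ctrl and 44.8% to 55.6% in icKO. The other 38 genes summed to 111 to 521 CPM in CNS Tconv and 6541 to 11302 CPM in CNS Treg libraries. Csf1r was at 0, 0, 21.3 and 49.3 CPM in CNS Tconv Ctrl and at 6.45, 16.1, 52.7 and 47.6 CPM in CNS Tconv icKO libraries. C1qb was at 0, 0.648, 22.2 and 38 CPM and at 8, 22.2, 71.6 and 58.7 CPM in the same order. The 3 libraries whose file names matched their titles (Ctrl replicates 1 and 2, icKO replicate 1) held the lowest levels of both genes, and the 5 whose file names did not held 16.1 CPM or more of Csf1r. Ctss, Lgals3, Cebpb and Cybb, in contrast, were at 18.5 CPM or more in all 8 libraries, including those with Csf1r at 0. In CNS Tconv Ctrl libraries 8 members were at 0 throughout (Nos2, Chil3, Pla2g7, Tnfaip2, Mrc1, Clec4e, Clec4d and Msr1), and in CNS Tconv icKO libraries Cd300ld and Cd209b.

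Counted over the 40 genes, the separation of CNS Treg libraries from the others was as follows. In Ctrl mice 38 members had all CNS Treg libraries above all dLN Treg libraries, where 19.2% of the 13500 genes tested did so, and 2 (Cd209b and Ccl8) had them below, where 24% of all genes did so. In icKO mice these counts were 35 (17.2% of all genes) and 2 (24.3%). Against CNS Tconv libraries, 38 members were without overlap higher in CNS Treg libraries of Ctrl mice (14.1% of all genes) and 36 in icKO mice (12.1%), and none was lower (8.14% and 8.8%). The exceptions in Ctrl mice were Cd209b and Lgals3. The median log2 fold change over the 40 genes was 4.26 in Ctrl and 4.06 in icKO Treg cells between the tissues, and 6.35 and 5.12 between Treg and Tconv cells of the CNS. With genes of a group at 0 set to their bound, the last pair was 5.98 and 5.14. Medians over all genes tested were 0.00 to 0.04. As levels chose the members, these counts are a description of the choice.

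Between Treg and Tconv cells of the lymph node the members were less separated in number. In Ctrl mice 2 members were higher without overlap in Treg libraries (20.8% of all genes) and 3 lower (17.5%), and in icKO mice 19 were higher (27.4%) and none lower (24.3%), against 2 dLN Tconv libraries. Lyz2 averaged 299 ± 279.7 CPM in dLN Treg Ctrl (SD, n = 3) and 49 ± 19.8 CPM in dLN Tconv Ctrl libraries (n = 3), and these overlapped through dLN Treg Ctrl replicate 3. Between the tissues in Tconv cells, 2 members were higher in the CNS in Ctrl mice (7.33% of all genes; Lgals3 and Cebpb) and 10 lower (12.4%), and in icKO mice 9 were higher (16.8%) and 7 lower (25.9%). Lyz2 was lower in the CNS in both genotypes, at 0 to 8.97 CPM in CNS Tconv libraries.

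Whether deletion of Tnfrsf1b in Foxp3-positive cells goes with a change of these transcripts was tested with edgeR's quasi-likelihood test across 13500 genes, with Benjamini-Hochberg adjustment and a threshold of 0.05. In CNS Treg cells 0 of 40 members passed, and 0% of all genes did. At an unadjusted p under 0.05 there was 1 member, limma called 0 and DESeq2 called 1 (Cd209b). The mean sum in icKO was 0.845 times that in Ctrl libraries, 9932 ± 2007 against 11759 ± 2220.4 CPM (SD, n = 3 each), and the groups overlapped. Of the log2 fold changes, 12 were above and 28 below 0, with a median of -0.21 against 0.00 over all genes, and no member was without overlap between the genotypes (2.98% of all genes higher, 4.52% lower). The smallest p belonged to Cd209b, at 0 in the 3 icKO libraries and 18.6, 0 and 1.34 CPM in Ctrl, an at least 31.3-fold lower mean (edgeR adjusted p = 0.55, and 0.0066 to 1 over the alternatives). That value rested on Ctrl replicate 1. Arg1 had a log2 fold change of -1.90 ± 1.19 (SE; edgeR adjusted p = 0.82) and S100a8 of -0.91 ± 0.63 (edgeR adjusted p = 0.85), with overlapping groups in both. Beside these, the summed neutrophil markers were 466 to 979 CPM in Ctrl and 121 to 457 CPM in icKO libraries, and markers of CD8 T and NK cells 423 to 666 and 708 to 1471 CPM. Neither pair of ranges overlapped, and their part in the members' values was not tested.

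In dLN Treg cells 0 of 40 members passed (0% of all genes), with 3 at an unadjusted p under 0.05 and 0 called by DESeq2 and by limma. S100a9 was at 0.46, 4.81 and 0.644 CPM in Ctrl and 0.36, 0.0681 and 0 CPM in icKO libraries, a log2 fold change of -3.74 ± 1.37 (edgeR adjusted p = 1). Arg1 was at 0 in the 3 Ctrl libraries and 6.34, 0.273 and 0 CPM in icKO, and Trem2 at 0.0658, 2.02 and 0 CPM in Ctrl and 0 in icKO (edgeR adjusted p = 1 for both). The values of Arg1 and Trem2 rest mainly on 1 library each. That of S100a9 leans on Ctrl replicate 2 (4.81 CPM) but stayed between -5.51 and -1.87 in fits that left out 1 library. The median log2 fold change was 0.00, as over all genes, and 1 member (Spp1) was higher and 1 (S100a9) lower without overlap, against 3.65% and 4.91% of all genes. In dLN Tconv cells 0 of 40 passed (0% of all genes), with 1 at an unadjusted p under 0.05. DESeq2 called 1 (Chil3) and limma 0. Chil3 was at 0, 3 and 5 counts in Ctrl and 0 and 0 in icKO libraries, near the floor of 3 counts. Siglece was at 0.741, 0.772 and 0.844 CPM in Ctrl and 0.221 and 0.0751 CPM in icKO (log2 fold change -2.32 ± 1.12, edgeR adjusted p = 1). Msr1 was at 1.08, 0 and 0 CPM against 0 and 0, and Gpr141 at 1.55, 0.491 and 1.46 against 0 and 0.676 CPM (edgeR adjusted p = 1 for both). The median was -0.21 against 0.00 over all genes, with 1 member higher and 4 lower without overlap (7.24% and 9.16% of all genes). This direction rested on leaving out icKO replicate 3. With 10 log2 fold changes above and 27 below 0 in the fit of 25 libraries, the fit of all 26 had 24 above and 13 below, a median of 0.99 against -0.36 over all genes, and still 0 members called. There S100a8 was at 9.30, S100a9 at 8.70, Chil3 at 9.19 and Lyz2 at 3.37 on the log2 scale (edgeR adjusted p = 0.44, 0.44, 0.44 and 0.46).

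In CNS Tconv cells 1 of 40 members passed, where 3.1% of all genes did (1.58% higher and 1.53% lower). It was Gpr141, at 0, 0, 0 and 0.227 CPM in Ctrl and 0.611, 1.9, 2.16 and 2.6 CPM in icKO libraries, a log2 fold change of 4.97 ± 1.17 (edgeR adjusted p = 0.024). The groups did not overlap, at 0 to 3 counts in Ctrl and 11 to 40 counts in icKO libraries, and no other member was without overlap (4.47% of all genes were higher and 4.11% lower). The share of members called was near that of all genes. At an unadjusted p under 0.05 there were 6 members, and DESeq2 called 5 (Chil3, Gpr141, Mrc1, Pla2g7 and Tnfaip2). Of these, all but Gpr141 were at 0 in every Ctrl library. Gpr141 was called in 8 of 16 alternatives, among them DESeq2 (DESeq2 adjusted p = 0.0013). The call was lost with all 26 libraries (edgeR adjusted p = 0.16), with limma (0.29) and in 5 of 8 fits that left out 1 CNS Tconv library (0.06 to 0.07, without Ctrl replicate 1, 2 or 3 or icKO replicate 3 or 4). It was also lost without the 5 libraries whose file names disagreed with their titles (0.31). In a model of the CNS Tconv groups alone Gpr141 did not pass the filter on low counts and was not tested, and none of the 22 members tested was called. In the fit without those 5 libraries, of 2 Ctrl libraries against 1 icKO library assumed to vary like the other groups, Csf1r and Itgam passed in place of it (edgeR adjusted p = 0.011 and 0.023). Csf1r was then at 0 and 0 against 6.45 CPM, and Itgam at 0.911 and 0.27 against 7.06 CPM. With all 8 libraries the log2 fold change of Csf1r was 0.87 ± 0.88 (edgeR adjusted p = 0.64) and that of Itgam 1.06 ± 0.66 (0.41). Of the 40 log2 fold changes, 27 were above 0 and the median was 0.63, against 0.00 over all genes. Beside this, Ccr2, a chemokine receptor of monocytes and of some T cells on the second macrophage list, rose by 0.90 ± 0.23 on the log2 scale (edgeR adjusted p = 0.034), the 1 gene called of 39 tested on that list. That second list summed to 1025 to 1424 CPM in Ctrl and 1619 to 2003 CPM in icKO libraries, without overlap. Its part in the members' values was not tested. On the neutrophil list Csf3r passed (edgeR adjusted p = 0.048), with all 4 Ctrl libraries at 0.

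**Figure D5:**
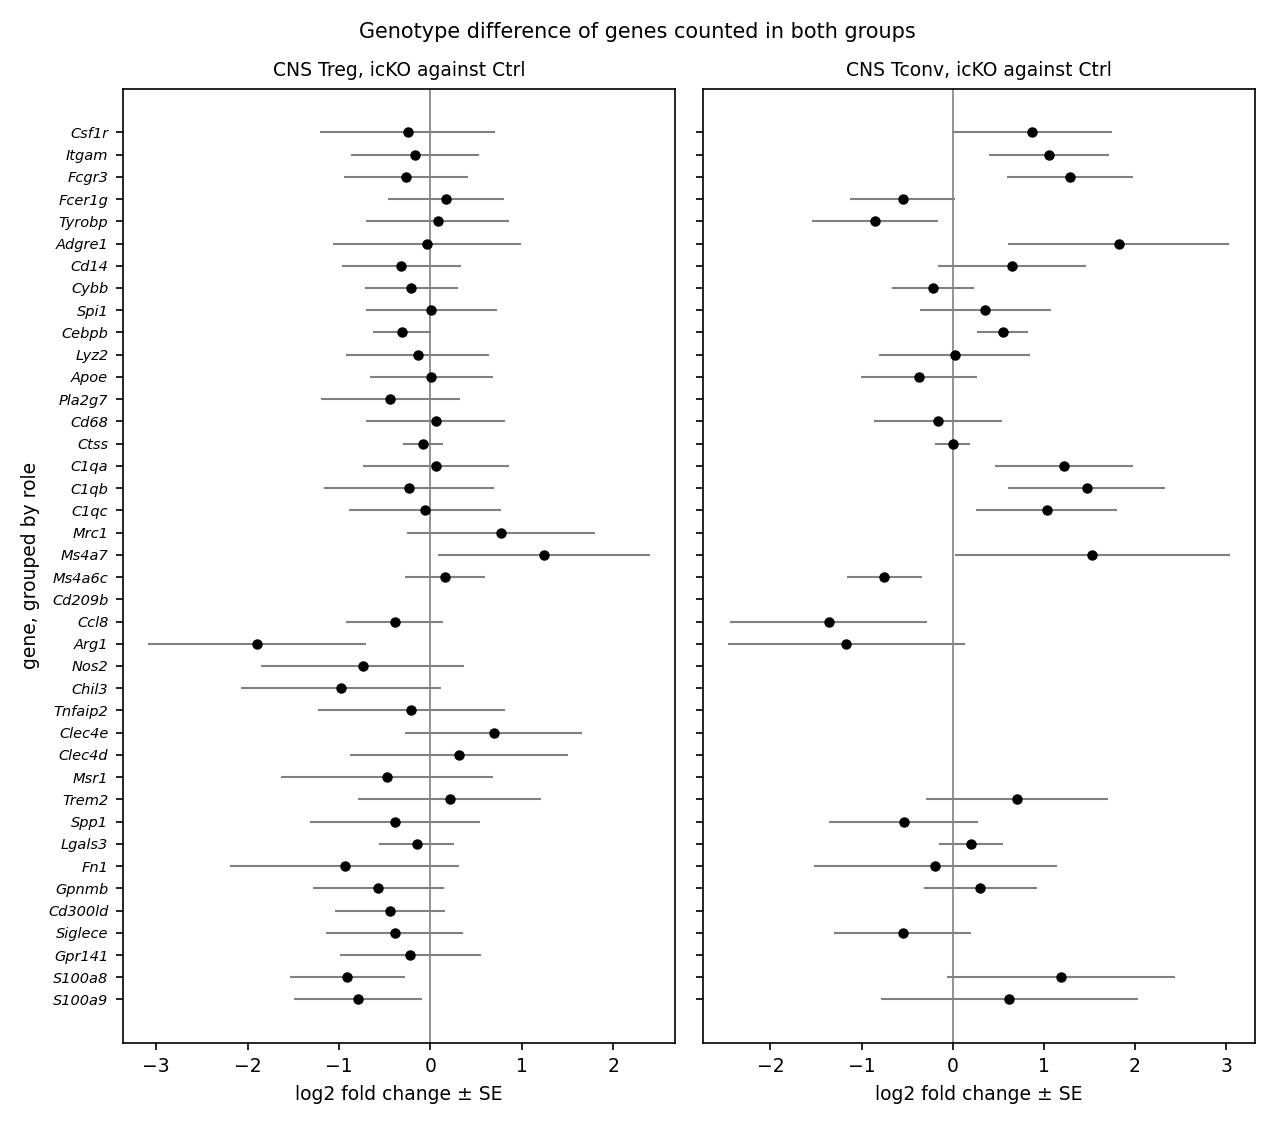
Log2 fold change of icKO against Ctrl, with SE, for members counted in both groups of CNS Treg (left) and CNS Tconv libraries (right); 0 is no difference. In CNS Treg cells most bars cross 0 and none passed the test; Gpr141 is not drawn at right because its Ctrl libraries held 3 counts in all.

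The genotype difference itself was compared between CNS Treg and CNS Tconv cells and between CNS and dLN Treg cells. In the first comparison 0 of 40 members passed, where 0.178% of all genes did (0.111% higher and 0.0667% lower), with 5 members at an unadjusted p under 0.05, 3 called by DESeq2 and 0 by limma. The smallest p belonged to Gpr141 (log2 difference -5.18 ± 1.45, edgeR adjusted p = 0.1, 0.025 to 0.62 over the alternatives). Chil3 and Pla2g7 came next (edgeR adjusted p = 0.22 and 0.24), and both were at 0 in all CNS Tconv Ctrl libraries. The median over the members was -0.92, against -0.02 over all genes. Without the 5 libraries with disagreeing file names 2 members passed (Csf1r and Itgam; edgeR adjusted p = 0.021 and 0.045). Between the tissues 0 of 40 passed (0% of all genes), with 3 at an unadjusted p under 0.05 and 0 called by DESeq2 and by limma. These 3 were Cd209b, Arg1 and Trem2, each with a group at 0 (edgeR adjusted p = 1), and the median was -0.11 against -0.01. With genes of a group at 0 set to their bound, the medians of the 4 genotype comparisons were -0.22 and -0.01 in Treg cells of the CNS and the dLN, and 0.64 and -0.22 in Tconv cells of the CNS and the dLN.

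Genes outside the list that followed it most closely were ranked by the correlation of log2(CPM + 1) with the log2 of the summed level over 25 libraries, among 9608 genes. The 10 highest were Ctsz, a cathepsin (r = 0.98), Clec7a, the receptor dectin-1 for fungal glucans (0.978), Ltbr, the lymphotoxin beta receptor (0.977), Wdfy3 (0.976), Hp, haptoglobin (0.975), and Lgmn, Pilra, Ugt1a7c, Slamf8 and Oas1g (0.974 each). The mean of Ctsz was 576 CPM in CNS Treg Ctrl against 134 CPM in CNS Tconv Ctrl libraries, and that of Clec7a 179 against 0.474 CPM. Of the members, Chil3 (0.975), Ctss (0.974) and Cd14 (0.974) followed the sum most closely. Lgals3 (0.509) and Gpnmb (0.487) followed it less, and Ccl8 (0.0797) and Cd209b (-0.225) did not. These are correlations over libraries that fall into a high and a low set, so they describe mainly the step between the CNS Treg libraries and the rest.

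Of the 40 genes, the left-out library (labelled dLN Tconv icKO replicate 3) held 9878 CPM, in the range of the CNS Treg libraries, but from fewer of them. S100a8 was at 1592, Lyz2 at 1532, S100a9 at 1255, Ccl8 at 1034 and Cd209b at 527 CPM, each above its level in any of the other 25 libraries. Meanwhile 17 members were at 0, among them Itgam, Cybb, Cd14 and Adgre1. Calprotectin was 28.8% of its sum, against 0.479% to 6% in CNS Treg libraries.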

How the data were processed

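Polyadenylated RNA of 26 samples of mouse T cells was sequenced from SMART-Seq v4 and Nextera libraries, per the labels' protocols. Per the submitters' processing notes, FastQC, Trimmomatic, STAR 2.5.3a and RSEM 1.2.28 were used with mm10. The authors deposited for each sample a table with expected counts per gene symbol, which need not be whole numbers, and with TPM and FPKM that RSEM scales by gene length and library total. FPKM in the deposited tables was not used here. RSEM divides reads that fit several genes, so levels of genes with close relatives (Lyz2 and Lyz1, Chil3 and Chil4, the Cd209 family) are uncertain to that extent. Strand is not recorded by the kit, so overlapping genes cannot be told apart.

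Expected counts were rounded, and a gene is called at 0 where they round to 0. CPM was computed per library total. The model was edgeR 4.0.16 (filterByExpr, TMM, quasi-likelihood, 8 group means) in R 4.3.3 on 25 libraries and 13500 genes, with Benjamini-Hochberg adjustment over all genes and a threshold of 0.05. SE was derived from the log2 fold change and its F statistic. Genotype contrasts and 2 interaction contrasts were tested, and 8 tissue and cell type contrasts were described. Replicates are labelled as mice, and p-values measure the spread between these samples. Folds against a group at 0 use a floor of 3 counts per library, equal to 0.162 to 0.241 CPM, which covers counting error only. The 40 genes, the other lists and the left-out library were chosen with earlier results of these data known.

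All 40 genes are accounted for, and values are given where the mean reached 10 CPM in a group (39 genes). The rule names the members called in each contrast, or the 3 with the smallest p, up to 3 called genes of each other list, and the 10 genes outside the list that are most like its sum; other names were chosen after their values were seen. The lists hold markers of microglia, dendritic cells, B cells, neutrophils, T cells, CD8 T and NK cells, of oligodendrocytes, neurons and astrocytes, and of further monocytes and macrophages. B cell markers summed to 25 to 135 CPM in CNS Treg libraries and 7 to 33 CPM in CNS Tconv libraries, and markers of oligodendrocytes, neurons and astrocytes to 759 to 1023 and 779 to 1099 CPM. On the CD8 T and NK list Cd8b1 passed in the CNS interaction (2.44 ± 0.43, edgeR adjusted p = 0.024).

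Alternatives were all 26 libraries, leaving out the 5 CNS Tconv libraries with disagreeing file names, edgeR with DESeq2 size factors, DESeq2 1.42.0 (Wald test), limma 3.58.1 with quality weights, no filter, 10 CPM in 3 libraries, a model of only the groups compared, a block for the replicate number, and fits that leave out 1 library. On simulated data with these group sizes, 2-fold changes were recovered for 59% and 57% of changed genes (Treg of the CNS and the dLN) and for 64% and 50% (Tconv of the CNS and the dLN). For 4-fold changes these shares were 91%, 91%, 96% and 85%, each of 100 changed genes among 13500 genes. The shares were not computed for the members, so they do not give the chance of calling a change in them. In CNS Treg cells the SE of the genotype log2 fold change was 0.96 for Csf1r and 0.93 for C1qb, and 0.22 for Ctss. For Csf1r and C1qb the SE was thus about the size of a 2-fold change. Promoter windows came from RefSeq for GRCm38.p6 and gene positions from GENCODE for GRCm38. Python 3.11.15 with matplotlib 3.10.9 drew the plots.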

Additional observations from a re-analysis of the deposited data

Results flagged for a closer look

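Among 35 values checked in groups of 4 libraries, 3 had 1 library far from the other 3, and chance alone gives about 1 in 20. All 3 lay in CNS Tconv icKO libraries. Apoe was at 1.78 CPM in replicate 1, where the others were at 9.61 to 11.2 CPM. That library's file name matched its title, and the file names of the other 3 did not. Chil3 was at 12.4 CPM in replicate 3 and at 0 in the others. With the others all at 0 any level meets the rule, so that rate does not apply to Chil3. Gpnmb was at 11.2 CPM in replicate 2, where the others were at 7.82 to 8.22 CPM.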

How the results depend on the processing

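Whether the replicate numbers pair the libraries could not be told with so few libraries per group. Deviations of same-numbered libraries correlated between -0.14 and 0.1 across genotypes, and between -0.11 and 0.1 across tissues or cell types of a genotype. Libraries of different numbers gave -0.1 to 0.15 and -0.16 to 0.19. Across tissues or cell types, the ranges were apart only between icKO dLN Treg and Tconv libraries. They were 0.046 to 0.06 for the same number and -0.06 to 0.017 for different numbers. That Tconv group held 2 libraries, whose deviations from their mean are mirror images. Each correlation therefore recurs with the opposite sign, and the gap cannot decide on pairing. With a replicate block Gpr141 had a log2 fold change of 5.06 in CNS Tconv cells (edgeR adjusted p = 0.027), and no count of members called changed. With all 26 libraries CNS Tconv cells had 0 members and 12 genes called, where the fit of 25 had 1 and 419, and the CNS interaction 0 genes in place of 24. Without the 5 libraries with disagreeing file names CNS Tconv cells had 2 members and 158 genes, and the CNS interaction 2 and 71. A filter of 10 CPM in 3 libraries gave 78 genes in the CNS interaction. DESeq2 called 1 member and 7 genes in CNS Treg, 2 genes in dLN Treg, 5 members and 898 genes in CNS Tconv, 1 member and 2 genes in dLN Tconv cells, 3 members and 455 genes in the CNS interaction, and 1 gene in the Treg interaction. limma called 1 gene in dLN Treg, 0 members in CNS Tconv cells and 3 genes in the CNS interaction. Fits of the compared groups alone gave 0 members and 102 genes in CNS Tconv cells, 1 gene in dLN Tconv cells and 0 genes in the CNS interaction. Leaving out 1 library gave 0 to 2 members and 109 to 796 genes in CNS Tconv cells, 0 to 263 genes in the CNS interaction, 0 to 13 genes in CNS Treg, 0 to 1 in dLN Treg cells and 0 to 1 in the Treg interaction. The log2 fold change of Msr1 in dLN Tconv cells, between -5.99 and 0.00, lost its sign in 1 such fit. The causes were not tested. With icKO replicate 3 included, an alternative added after seeing the data, the mean sum of dLN Tconv icKO libraries was 3781 CPM in place of 732 CPM, and 18 members changed the sign of their fold change in dLN Tconv cells. With TMM scaling, summed levels of the 40 genes stayed within 1 SD of their group. With each library of the 25 left out in turn, the mean sums were 8858 to 13024 CPM in the CNS Treg groups. In the other groups they were 649 to 1627 CPM. Leaving out 1 library cannot move the mean of its group by 1 SD, whatever the values, so the SD is no yardstick for these fits. At 12.4 to 18.5 M counts, members at 0 are bounded only by the floor of 3 counts.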
